A study of Mus musculus with 16 samples.

Results

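Phlda1, Vegfa, Errfi1, Odc1, Ifrd1, Sowahc and Fam43a were followed in bone marrow-derived macrophages (BMDM), macrophages grown from mouse bone marrow, with and without NELF-B. The 7 genes, of 9614 in the expression table, were chosen by their level under LPS + Dex, which was higher in NELF-B KO than in WT cells. The LPS + Dex libraries that chose them are therefore described without a test. RNA-seq of polyadenylated RNA was available for 16 libraries from 3 WT and 3 NELF-B KO mice, all C57BL/6 males of 8 weeks. Cells were left untreated (2 libraries per genotype), or received 10 ng/ml LPS, a bacterial lipid that signals through a Toll-like receptor, for 1 hr without Dex (3 per genotype) or together with 100 nM Dex, a synthetic glucocorticoid (3 per genotype). Both genotypes carried LysM-Cre, a Cre recombinase driven by a promoter active in myeloid cells, with wild-type NELF-B alleles (NELF-B wt/wt) in the WT and loxP-flanked alleles (NELF-B fl/fl) in the KO, so the deletion is limited to cells in which Cre was active. Letters A, B and C name the mice of each genotype. WT and KO mice B shared a printed date and mice C shared the form of their sample tags. Mice A are the remaining pair, and no label ties them: the KO tags carry another printed date and the WT tags carry none. Mice of the same letter are treated as a batch, which for mice A is an assumption.

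NELF is a protein complex that holds RNA polymerase II paused shortly after it starts transcription, and NELF-B is one of its subunits. Release of NELF lets the polymerase proceed into the gene, a step used by many genes that signals switch on within minutes. Glucocorticoids bind the glucocorticoid receptor, which lowers the transcription of many inflammatory genes in macrophages. Vegfa encodes a secreted growth factor for blood vessels. Errfi1 encodes a cytoplasmic inhibitor of the EGF receptor family that is itself induced by growth signals, and Phlda1 encodes a pleckstrin homology-like protein induced by mitogens and linked to restraint of receptor and Akt signaling. Odc1 encodes ornithine decarboxylase, the rate-limiting enzyme of polyamine synthesis. Ifrd1 encodes a transcriptional co-regulator that is switched on rapidly by many stimuli. Sowahc encodes an ankyrin repeat protein and Fam43a a protein with a phosphotyrosine interaction domain, and little is known of either.

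Levels are given as log2 CPM, the deposited log2 of read counts that were scaled to the same total in each library (CPM). The libraries held 25000000 to 49700000 reads on the genes of the table (rounded), and the 7 genes were covered by 49 to 17885 reads per library. Nelfb itself was 5.59 to 6.21 log2 CPM in the 8 WT libraries and 3.27 to 4.38 in the 8 KO libraries, so the genotypes did not overlap. Its mean difference, KO minus WT, was -2.11 untreated, -2.02 under LPS and -2.0 under LPS + Dex on the log2 scale. Gene-level counts of Nelfb include exons outside the floxed one, and KO mouse B kept the highest Nelfb level of the KO mice in each treatment. One library, that of untreated WT mouse A, was unlike the rest: its r across genes was 0.83 to 0.909 with the other 15, which had 0.924 to 0.993 among themselves. Of the 7 macrophage markers listed, 6 were in the table (Csf1r, Itgam, Cd68, Lyz2, Fcgr1 and Mertk), and their summed level was 12.44 to 12.84 log2 CPM in the 16 libraries. Of the 3 fibroblast markers all 3 were in the table, and under LPS their sum was 5.32 to 6.07 in the WT and 5.86 to 6.31 in the KO. S100a8, the neutrophil marker in the table of 5 listed, was 2.45 to 4.36 and 3.80 to 5.18, and Pecam1, the endothelial marker in the table of 3, was 4.06 to 5.68 and 4.50 to 5.94, in LPS-treated WT and KO cells. Ccr7, the dendritic cell marker in the table of 3, was -0.85 to 2.50 and -0.98 to 3.06. None of the listed T cell, B cell and epithelial markers was in the table. The genotypes overlapped for each of these sums, and their part in the results was not tested. In bulk RNA, fewer expressing cells and less RNA per cell cannot be told apart.

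All 7 genes encode proteins. By GENCODE vM21 (GRCm38, which mm10 also names), Phlda1 lies at chr10:111506286-111508645 on the plus strand, Sowahc at chr10:59221953-59226434 (plus) and Fam43a at chr16:30599723-30602797 (plus). Vegfa lies at chr17:46016993-46032369 on the minus strand and Errfi1 at chr4:150853919-150868892 on the plus strand. Odc1 at chr12:17544794-17551505 (plus) and Ifrd1 at chr12:40201567-40248504 (minus) are on the same chromosome. By gene span, Phlda1 overlaps the non-coding Gm28592, Errfi1 overlaps 1700045H11Rik and Ifrd1 overlaps Gm7008, each on the opposite strand. On the same strand, Odc1 overlaps Gm22748, and Ifrd1 overlaps Gm17024, Mir1938 and Gm47954. Since no strand setting is stated for the counting, reads from stretches shared by opposite-strand pairs cannot be told apart. Whether exons overlap was not examined. Per kb of exon, the mean WT level under LPS ran from 3.82 log2 CPM per kb for Phlda1 to 5.47 for Errfi1, with Fam43a at 4.09, Sowahc at 4.42, Ifrd1 at 4.84, Odc1 at 5.17 and Vegfa at 5.42.

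Promoter sequence was available for 6 of the 7 genes in RefSeq (GRCm38.p6), from 250 bases before each annotated start. The stretches shown are those of Errfi1, Odc1 and Sowahc, the genes with a sequence whose genotype difference under LPS passed the test with batch in the fit. They are printed 5′ to 3′ on the strand of the gene, up to the first base that GENCODE places in an exon of the gene, and capitals mark matches to the motifs searched on both strands. The motifs were the core promoter element TATAAA, the AP-1 site TGANTCA, the CRE (cyclic AMP response element) TGACGTCA, the GC box GGGCGG, the E-box CACGTG, the CArG box and the NF-kB motif. Errfi1 has annotated starts after chr4:150853546-150853795 and after chr4:150854820-150855069, the Odc1 stretch is chr12:17544623-17544793 and that of Sowahc chr10:59221672-59221921, all on the plus strand.
Errfi1, upstream start: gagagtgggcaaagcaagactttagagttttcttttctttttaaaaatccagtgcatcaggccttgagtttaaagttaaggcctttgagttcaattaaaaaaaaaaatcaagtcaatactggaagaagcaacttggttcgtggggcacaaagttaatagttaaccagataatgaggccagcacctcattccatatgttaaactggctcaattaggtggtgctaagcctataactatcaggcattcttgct
Errfi1, downstream start: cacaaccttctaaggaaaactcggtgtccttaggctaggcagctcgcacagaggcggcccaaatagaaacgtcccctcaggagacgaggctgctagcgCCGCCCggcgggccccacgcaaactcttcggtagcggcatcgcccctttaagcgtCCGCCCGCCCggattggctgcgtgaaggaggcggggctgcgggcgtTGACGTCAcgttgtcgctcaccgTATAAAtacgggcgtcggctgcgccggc
Odc1: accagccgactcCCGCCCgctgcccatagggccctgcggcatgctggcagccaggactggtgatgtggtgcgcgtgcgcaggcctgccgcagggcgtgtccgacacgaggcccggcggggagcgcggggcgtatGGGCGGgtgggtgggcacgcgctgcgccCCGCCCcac
Sowahc: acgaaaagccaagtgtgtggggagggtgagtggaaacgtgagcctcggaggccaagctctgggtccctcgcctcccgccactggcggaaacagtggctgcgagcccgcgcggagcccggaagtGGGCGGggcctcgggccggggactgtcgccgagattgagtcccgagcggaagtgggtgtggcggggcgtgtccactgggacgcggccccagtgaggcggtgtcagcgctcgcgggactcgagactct
The window at the downstream start of Errfi1 held TATAAA, a CRE and 3 GC boxes, 2 of which overlap. A CRE was found in 1.55% of all 32851 promoter windows, TATAAA in 12.4% and a GC box in 32.7%. The window at the upstream start of Errfi1 held none of the motifs. The printed stretches held 3 GC boxes for Odc1 and 1 for Sowahc. Among the genes not shown, 1 NF-kB motif (3.9% of all windows) and 2 GC boxes lay before the upstream start of Vegfa, 1 GC box before its downstream start, 2 GC boxes before Ifrd1 and no motif before Fam43a. No AP-1 site (6.75% of windows), E-box (6.02%) or CArG box (1.47%) was found for the 6 genes. The GC content of the windows of the 6 genes ran from 38.0% at the upstream start of Errfi1 to 80.0% for Odc1, and the median of all windows was 52.4%.

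**Figure D1:**
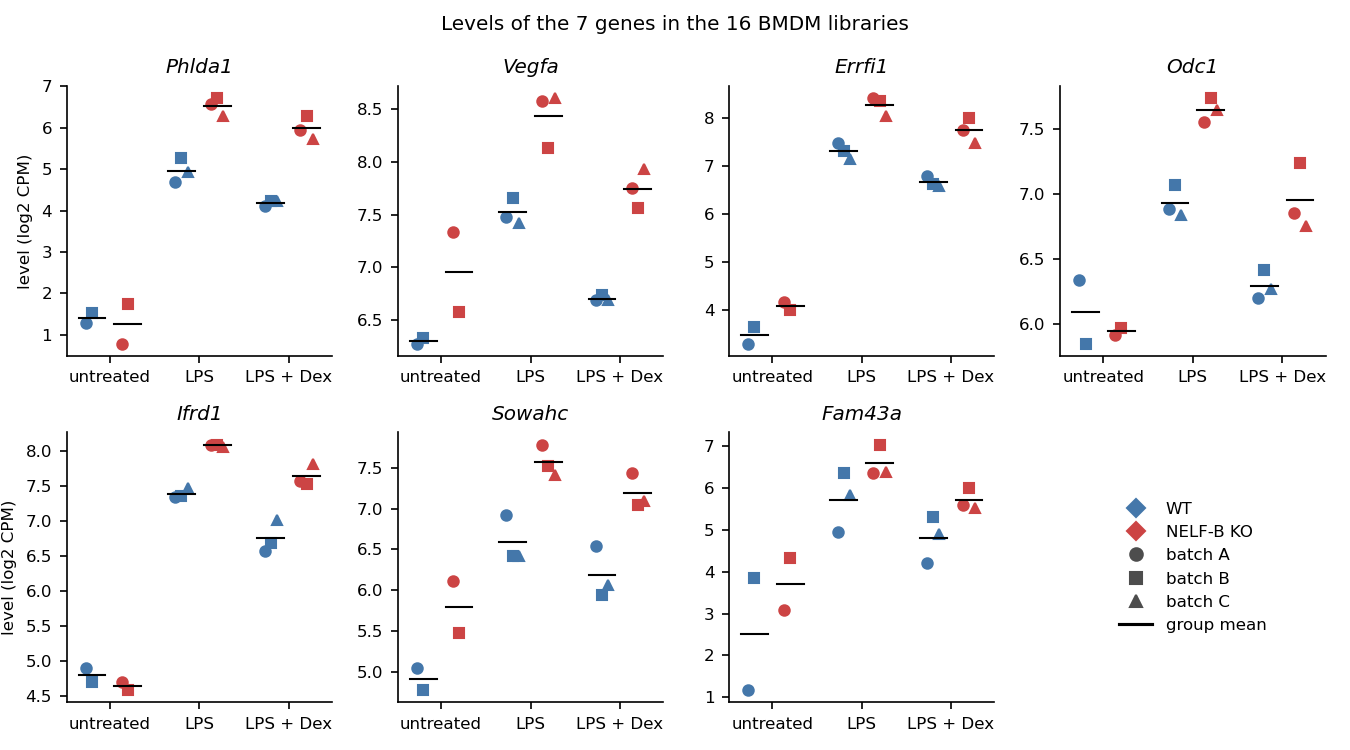
Level of each gene (y axis, log2 CPM, a separate scale per gene) by treatment (x axis) in WT (blue) and NELF-B KO (red) BMDM; circles, squares and triangles are batches A, B and C, and black lines are group means. Under LPS every KO library lies above every WT library for 6 genes, Fam43a being the exception, whereas untreated this holds only for Vegfa, Errfi1 and Sowahc.

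Vegfa, the secreted ligand among these genes, had untreated levels of 6.28 and 6.33 log2 CPM for WT A and B, against 7.34 and 6.58 for KO A and B. Under LPS the WT had 7.48, 7.67 and 7.42 and the KO 8.57, 8.13 and 8.61 in mice A, B and C. Under LPS + Dex the WT values were 6.69, 6.74 and 6.69 and the KO values 7.75, 7.56 and 7.93. In each treatment every KO library was above every WT library. The KO of batch B was the lowest KO under LPS and LPS + Dex, and its difference from the WT was the smallest in each treatment. Within batches A and B the difference, KO minus WT, was 1.06 and 0.25 on the log2 scale untreated. Within batches A, B and C it was 1.10, 0.47 and 1.19 under LPS and 1.06, 0.82 and 1.24 under LPS + Dex. The mean KO level was thus 1.89-fold that of the WT under LPS and 2.06-fold under LPS + Dex. Here and below, such folds are taken from the difference of mean log2 CPM. The KO cells under LPS + Dex overlapped the WT cells under LPS, with means of 7.75 ± 0.18 and 7.52 ± 0.13 log2 CPM (SD, n = 3).

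Errfi1, the inhibitor of EGF receptors, had untreated levels, for mice A and B in turn, of 3.31 and 3.66 log2 CPM in the WT and 4.18 and 4.0 in the KO. LPS-treated mice A, B and C had 7.48, 7.31 and 7.14 in the WT and 8.40, 8.34 and 8.04 in the KO. With Dex as well, the WT values were 6.79, 6.62 and 6.59 and the KO values 7.74, 8.00 and 7.48. The genotypes did not overlap in any treatment. The difference was alike in the LPS batches, at 0.92, 1.03 and 0.91 (log2, batches A, B and C), and ranged more widely under LPS + Dex, at 0.95, 1.38 and 0.89. Untreated it was 0.87 in batch A and 0.34 in batch B. The mean KO level was 1.93-fold that of the WT under LPS and 2.10-fold under LPS + Dex. KO cells under LPS + Dex and WT cells under LPS again touched, with ranges of 7.48 to 8.00 and 7.14 to 7.48.

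Phlda1, the mitogen-induced pleckstrin homology-like gene, was the lowest of the 7 per kb in LPS-treated WT cells and had the largest genotype difference under LPS. In untreated mice A and B it was 1.28 and 1.52 log2 CPM (WT) and 0.79 and 1.75 (KO), so the KO values enclosed the WT values. LPS-treated WT mice had 4.68, 5.26 and 4.94 and LPS-treated KO mice 6.57, 6.71 and 6.28, in the order A, B and C. The LPS + Dex values were 4.10, 4.22 and 4.22 in the WT and 5.95, 6.28 and 5.72 in the KO. The lowest KO value under LPS + Dex, 5.72, was above the highest WT value under LPS, 5.26. The genotype difference was -0.49 and 0.23 in batches A and B untreated and 1.90, 1.45 and 1.34 in batches A, B and C under LPS (log2). The mean KO level was 2.95-fold that of the WT under LPS and 3.49-fold under LPS + Dex.

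Odc1, the entry enzyme of polyamine synthesis, had overlapping genotypes in untreated cells, with 6.34 and 5.85 log2 CPM for WT A and B and 5.92 and 5.97 for KO A and B. LPS-treated WT mice A, B and C had 6.89, 7.07 and 6.84 and the KO mice 7.56, 7.75 and 7.65. With LPS + Dex the values were 6.20, 6.42 and 6.27 in the WT and 6.86, 7.24 and 6.76 in the KO. The treated genotypes were apart in both conditions. Batch by batch, the difference was -0.42 and 0.12 untreated, 0.67, 0.67 and 0.81 under LPS, and 0.66, 0.83 and 0.49 under LPS + Dex (log2). The mean KO level was 1.64-fold that of the WT under LPS and 1.58-fold under LPS + Dex. WT cells under LPS + Dex and untreated WT cells overlapped (6.20 to 6.42 and 5.85 to 6.34).

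Ifrd1, the transcriptional co-regulator, had the smallest spread between KO mice under LPS. Untreated levels were 4.90 and 4.70 log2 CPM for WT A and B and 4.71 and 4.59 for KO A and B, with overlap between the genotypes. Under LPS the WT mice had 7.35, 7.36 and 7.47 and the KO mice 8.09, 8.09 and 8.06. Under LPS + Dex they had 6.58, 6.69 and 7.02 and 7.58, 7.53 and 7.82. The treated groups followed the order LPS-treated KO, LPS + Dex-treated KO, LPS-treated WT and LPS + Dex-treated WT, and no neighbours in that order overlapped. The genotype difference was -0.20 and -0.11 untreated, 0.75, 0.72 and 0.60 under LPS and 1.00, 0.84 and 0.80 under LPS + Dex (log2, in order of batch). The KO mean was 1.61-fold the WT mean under LPS and 1.84-fold under LPS + Dex.

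Sowahc, the ankyrin repeat gene, had untreated levels of 5.05 and 4.78 log2 CPM for WT A and B and 6.12 and 5.48 for KO A and B. Its LPS values were 6.92, 6.42 and 6.42 in the WT and 7.79, 7.52 and 7.41 in the KO. Its LPS + Dex values were 6.54, 5.95 and 6.07 in the WT and 7.43, 7.04 and 7.09 in the KO. Mouse A had the highest level of its group in all 6 groups, and each KO library was above each WT library of the same treatment. The mean difference varied least among treatments, and batch by batch it was 1.07 and 0.70 untreated, 0.87, 1.10 and 0.99 under LPS and 0.89, 1.09 and 1.02 under LPS + Dex (log2). The mean KO level was 1.98-fold that of the WT under LPS and 2.00-fold under LPS + Dex.

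Fam43a varied more between mice than the other 6 genes did under LPS. Untreated WT A and B had 1.17 and 3.86 log2 CPM, and untreated KO A and B had 3.09 and 4.32. With LPS the WT values were 4.94, 6.36 and 5.85 and the KO values 6.35, 7.03 and 6.39 (A, B and C). Under LPS + Dex the values were 4.20, 5.30 and 4.91 in the WT and 5.58, 6.01 and 5.53 in the KO. The genotypes overlapped untreated and under LPS, where WT mouse B was just above KO mouse A, but not under LPS + Dex. Within every batch and treatment the KO was higher, by 1.92 and 0.46 untreated, 1.41, 0.67 and 0.55 under LPS and 1.38, 0.71 and 0.62 under LPS + Dex (log2). Batch A had the largest difference each time, and its WT mouse the lowest level. The mean fold, KO over WT, was 1.83 under LPS and 1.87 under LPS + Dex.

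**Figure D2:**
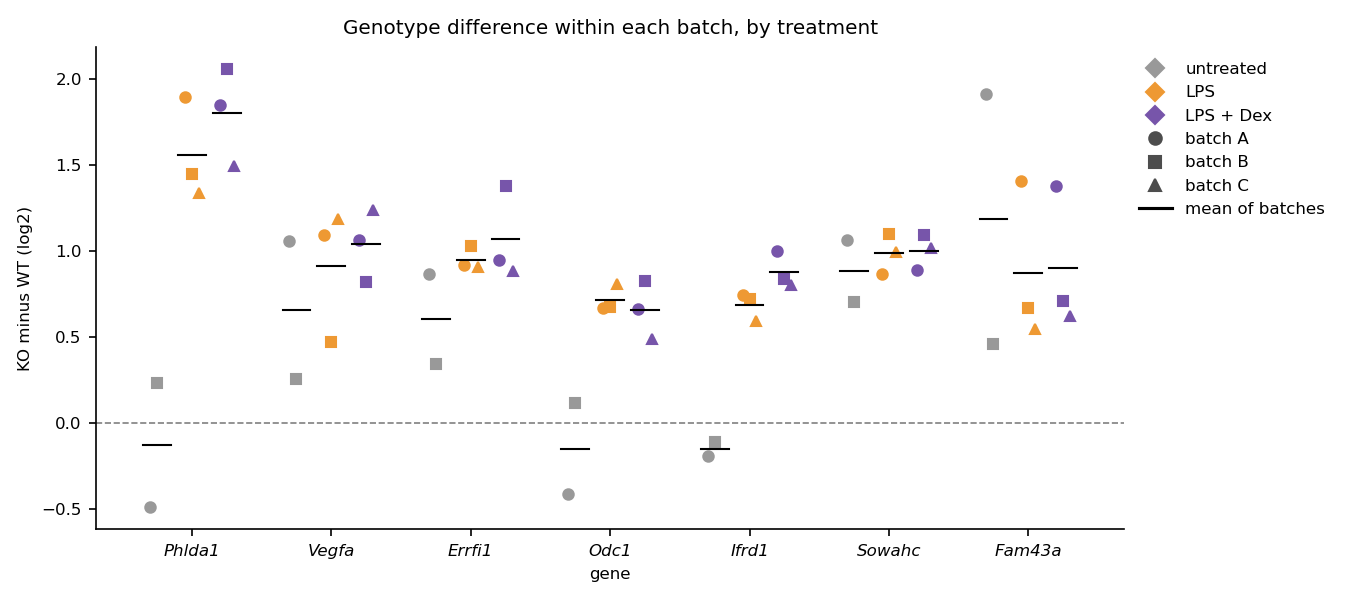
Difference between NELF-B KO and WT (y axis, KO minus WT, log2) for each gene (x axis) within each batch, untreated (gray), under LPS (orange) and under LPS + Dex (purple), with black lines for the mean of the batches. All LPS and LPS + Dex points are above 0, while untreated Phlda1 and Odc1 have points on both sides of 0 and Ifrd1 lies below it.

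The choice by genotype used the LPS + Dex libraries and not the LPS libraries, so the genotype difference under LPS was tested. This test is not fully independent of the choice. The LPS libraries come from the same mice and deviated with the LPS + Dex libraries of the same mouse (r across genes of 0.781 to 0.939). Those of WT mice A and B also entered the study's published list of LPS-induced and Dex-repressed genes, which holds all 7. All 7 genes were higher on average in the LPS-treated KO, with a median log2 difference of 0.92 against 0.0012 over all 9614 genes. In rank of this difference among all genes Phlda1 was number 5, Sowahc 22, Errfi1 30, Vegfa 34, Fam43a 36, Odc1 67 and Ifrd1 73. Every KO library was above every WT library for 6 of the 7, all except Fam43a, as for 5.91% of all genes.

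In limma's moderated test on the 6 LPS libraries, with p-values adjusted over all genes by the Benjamini-Hochberg method, no gene of the table was over 1.5-fold higher in the KO at an FDR under 0.05 (0.0%), and this held for the 7 genes. At an unadjusted p under 0.05 with the same fold all 7 were higher, against 0.926% of all genes (89). With batch as a block, 9 genes of the table (0.0936%) were higher at the FDR of 0.05, and Phlda1, Errfi1, Odc1 and Sowahc were among them. The block takes mice A as a pair, which no label shows. At an unadjusted p the block gave all 7, against 1.27% of all genes, and a single fit of the 16 libraries gave Phlda1 and Errfi1 at the FDR, against 0.114%. Phlda1 differed by 1.56 on the log2 scale, with a standard error of 0.18 (limma adjusted p = 0.105), which became 0.12 once batch was in the fit (adjusted p = 0.0399). Errfi1 differed by 0.95 (standard error 0.14, limma adjusted p = 0.135, and 0.0338 once batch was in the fit). For Odc1 the difference was 0.72 (standard error 0.10, limma adjusted p = 0.135, and 0.044 with the block) and for Sowahc 0.99 (standard error 0.17, limma adjusted p = 0.246, and 0.0338 with the block). Ifrd1, with 0.69 (standard error 0.086, limma adjusted p = 0.119), and Vegfa, with 0.92 (standard error 0.15, limma adjusted p = 0.216), did not pass with the block either (adjusted p = 0.0527 and 0.0905). Fam43a differed by 0.87 (standard error 0.36, limma adjusted p = 0.558, and 0.113 with the block). Leaving out WT mouse B, 3 of the 7 passed the FDR without the block, namely Phlda1, Odc1 and Ifrd1 (limma adjusted p = 0.0253, 0.0374 and 0.0435), as did 0.208% of all genes (20). Fam43a was past the unadjusted p of 0.05 with all 6 libraries and without WT mouse B (log2 difference 1.20), but not when any of the other 5 libraries was left out, and its difference was 0.49 without WT mouse A.

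**Figure D3:**
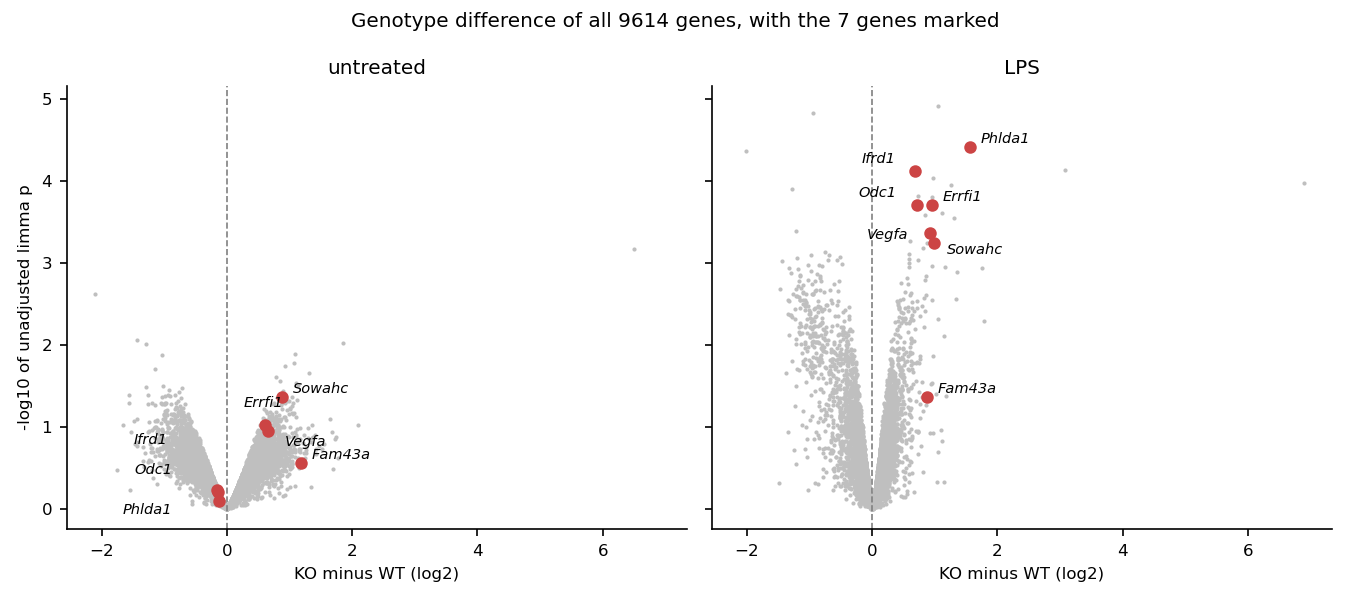
Log2 difference, KO minus WT (x axis), and -log10 of the unadjusted limma p (y axis) of every gene in untreated (left) and LPS-treated (right) BMDM, in gray, with the 7 genes in red. Under LPS all 7 lie to the right of 0, and untreated Phlda1, Odc1 and Ifrd1 lie just to the left of 0.

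Untreated cells split the 7 genes. Vegfa, Errfi1 and Sowahc were higher in both KO libraries than in both WT libraries, which held for 15.7% of all genes, while Phlda1, Odc1, Ifrd1 and Fam43a overlapped. The mean log2 difference was 1.19 for Fam43a, 0.88 for Sowahc, 0.66 for Vegfa and 0.61 for Errfi1, against -0.13 for Phlda1 and -0.15 for Odc1 and for Ifrd1. Under an FDR of 0.05 in limma's test, 0 of the 7 and 0.0% of all genes were over 1.5-fold higher (limma adjusted p = 0.889 to 0.945 for the 7). At an unadjusted p under 0.05 Sowahc was higher (standard error 0.33), against 0.187% of all genes, and of the 4 libraries only that of WT mouse A could be left out without losing this. With the batch block, which leaves 1 residual degree of freedom, Sowahc and Fam43a were higher at an unadjusted p under 0.05, against 1.85% of all genes. The value of Fam43a rests on the WT library of mouse A, which stood apart from the others. Without that library its difference was -0.16, while those of Sowahc, Vegfa and Errfi1 were 1.02, 0.63 and 0.43. The values also moved with the KO libraries: without KO mouse A they were 0.56 for Sowahc, 0.28 for Vegfa and 1.8 for Fam43a, and without KO mouse B 1.20, 1.04 and 0.57. Without WT mouse B, Errfi1 and Fam43a were called at the FDR, as were 20.9% of all genes.

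The change with LPS was tested in the 10 untreated and LPS libraries in a single fit. All 7 genes rose with LPS in the WT at an FDR under 0.1 and over 1.5-fold in limma's test, as did 3.36% of all genes (323), and 6 of the 7 rose in the KO (2.8% of all genes), Fam43a being the exception. The 7 genes are all in the study's published list of LPS-induced and Dex-repressed genes, which was made from the WT libraries of mice A and B. Their rise in the WT and their lower level with Dex are therefore not independent evidence. Tests of the KO against these WT libraries, including that of the size of the rise, are not fully independent of the list either. Errfi1 rose most in the WT, by a log2 change of 3.83 with a standard error of 0.18 (limma adjusted p = 4.02e-06), and by 4.17 in the KO. Phlda1 rose by 3.56 in the WT and 5.25 in the KO, with a standard error of 0.29 in each. Ifrd1 rose by 2.59 and 3.43 and Sowahc by 1.67 and 1.77. Vegfa rose by 1.22 and 1.48 and Odc1 by 0.84 and 1.71. Fam43a rose by 3.20 in the WT (standard error 0.74, limma adjusted p = 0.0536), and its change in the KO was 2.89 (limma adjusted p = 0.1002). The rise of Fam43a in the WT did not pass without the untreated library of WT mouse A (log2 change 1.85, limma adjusted p = 0.254). Without the LPS library of WT mouse B or C its change stayed at 2.88 or 3.13 but did not pass the FDR (limma adjusted p = 0.148 and 0.168). With the mouse as a replicate block, 6 of the 7 rose in the WT (2.16% of all genes) and 7 in the KO (2.12%). Odc1 was then lost in the WT (log2 change 0.89, limma adjusted p = 0.248) and Fam43a was gained in the KO (adjusted p = 0.0417). Fam43a also passed in the KO when the untreated library of WT mouse A (limma adjusted p = 0.00995) or B (0.00997) was left out of the shared fit.

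The genotypes were then compared for the size of this rise. Within mice A and B, Phlda1 was 3.40 and 3.75 higher with LPS in the WT and 5.78 and 4.97 higher in the KO (log2). Odc1 was 0.55 and 1.22 higher in the WT and 1.63 and 1.78 in the KO, and Ifrd1 2.44 and 2.67 higher in the WT and 3.38 and 3.50 in the KO. For these 3 genes both KO mice had a larger rise than both WT mice, a separation found in 12.8% of all genes. This was also so for Errfi1, whose rise was 4.17 and 3.65 in the WT and 4.22 and 4.34 in the KO, but there the lower KO mouse was only just above the higher WT mouse. Vegfa, at 1.20 and 1.34 in the WT and 1.23 and 1.55 in the KO, overlapped between the genotypes. Sowahc did as well, at 1.87 and 1.64 in the WT and 1.67 and 2.04 in the KO, as did Fam43a, at 3.77 and 2.50 and at 3.27 and 2.71.

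The difference of the rise between the genotypes, an interaction term in the 10-library fit, passed an FDR of 0.05 for none of the 7 genes and for 0.0% of all genes (limma adjusted p = 0.823 to 0.922 for the 7). At an unadjusted p under 0.05, without a fold threshold, 3 of the 7 had a larger rise in the KO, against 0.177% of all genes (17). These were Ifrd1, with 0.84 (standard error 0.18, limma adjusted p = 0.823), Phlda1, with 1.69 (standard error 0.41, adjusted p = 0.823), and Odc1, with 0.87 (standard error 0.24, adjusted p = 0.823). The same 3 genes were found with the replicate block at an unadjusted p under 0.05 (0.177% of all genes), with differences of 0.89, 1.8 and 0.82. Without the untreated library of WT mouse A their differences were 0.74, 1.81 and 0.62, each again past an unadjusted p of 0.05 in limma's test. Without that of WT mouse B all 3 passed the FDR, as did 15.9% of all genes. The differences of Errfi1, Vegfa, Sowahc and Fam43a were 0.35, 0.26, 0.10 and -0.31, with standard errors of 0.25, 0.33, 0.34 and 1.04, and none had an unadjusted p under 0.05. Leaving out 1 library changed the sign of 3 of these differences, and the differences ran from -0.12 to 0.64 for Vegfa, -0.22 to 0.42 for Sowahc and -1.66 to 1.03 for Fam43a, against 0.17 to 0.52 for Errfi1. The lowest values of Vegfa and Sowahc arose without the untreated library of KO mouse B and their highest without that of KO mouse A. Those of Fam43a arose without the untreated library of WT mouse B and of WT mouse A.

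**Figure D4:**
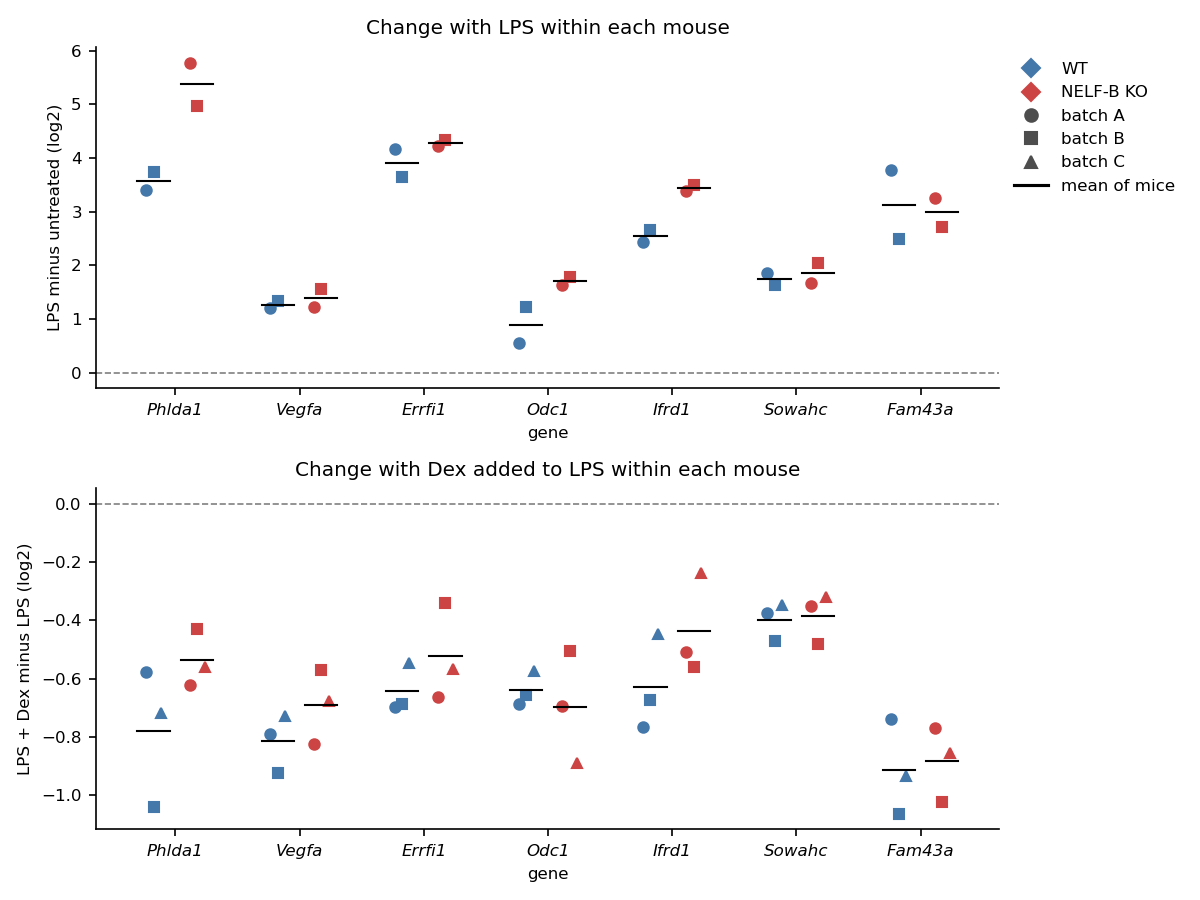
Change within each mouse with LPS (upper panel, LPS minus untreated, log2) and with Dex added to LPS (lower panel, LPS + Dex minus LPS, log2) for each gene in WT (blue) and NELF-B KO (red), with markers for batches and black lines for the mean of the mice. The LPS points of Phlda1, Odc1, Ifrd1 and, narrowly, Errfi1 are higher in both KO mice than in both WT mice, and all Dex points are below 0 in both genotypes.

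With Dex added, all 7 genes were lower than with LPS alone in each of the 3 WT and each of the 3 KO mice. By group mean, 0 of the 7 had a change above 0, against 45.8% of all genes in the WT and 48.7% in the KO. In WT mice A and B the lower level is not independent evidence, since the study's list of Dex-repressed genes was made from them. The mean change ran from -0.91 (Fam43a) to -0.40 (Sowahc) in the WT and from -0.88 (Fam43a) to -0.39 (Sowahc) in the KO on the log2 scale, with medians of -0.64 and -0.54 against -0.007 and -0.0023 over all genes. The change of Ifrd1 in mice A, B and C was -0.77, -0.67 and -0.45 in the WT and -0.51, -0.56 and -0.24 in the KO. For Phlda1 the values were -0.58, -1.04 and -0.72 in the WT and -0.62, -0.43 and -0.56 in the KO. Within a batch, Sowahc and Fam43a had nearly the same change in both genotypes.

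The genotype difference was thus set against itself without and with Dex, batch by batch, as a description. The difference under LPS + Dex minus that under LPS was 0.26, 0.11 and 0.21 for Ifrd1 in batches A, B and C, above 0 in each. For Phlda1 it was -0.04, 0.61 and 0.16, for Vegfa -0.03, 0.35 and 0.05 and for Errfi1 0.03, 0.35 and -0.02, so that batch B was the highest of the batches for each of these 3 genes. Odc1 had -0.005, 0.15 and -0.32. Sowahc, with a mean of 0.014 ± 0.020 (SD, n = 3), and Fam43a, with 0.029 ± 0.055, had almost the same genotype difference with and without Dex. Compared with WT cells under LPS alone, KO cells under LPS + Dex were higher in each of the 3 batches for Phlda1 (mean 1.02, log2), Sowahc (0.60), Errfi1 (0.43) and Ifrd1 (0.25), in 2 batches for Vegfa (0.23) and in 1 batch for Odc1 (0.02) and Fam43a (-0.01). Both comparisons use the LPS + Dex values by which the genes were chosen as higher in the KO, so they lean toward higher KO values. Neither was tested, and the share of all genes was not computed for them.

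Other genes of the same pathways were counted in the LPS libraries and in the rise with LPS. Of 15 listed feedback inhibitors of receptor tyrosine kinases, 10 were in the table. Under LPS, Errfi1 alone of the 10 was higher in the KO, both at an unadjusted p and, once batch was in the fit, at the FDR, and none was lower. The median difference of the 10 was 0.014. Sh3kbp1, Spred1 and Cbl, the members with the highest level besides Errfi1, differed by 0.01, 0.02 and -0.07 on the log2 scale (standard errors 0.086, 0.23 and 0.15). Spry2, an inhibitor of the Ras to ERK pathway, was the other member that rose with LPS, by 1.09 in the WT (limma adjusted p = 0.0815) and 1.28 in the KO (0.0445), a call that was lost in both genotypes with the replicate block (0.211 and 0.124).

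Of 14 listed EGF family ligands and receptors 2 were in the table, and neither passed a test between the genotypes under LPS. Areg, a ligand of the EGF receptor, was at -5.15 to -4.04 log2 CPM in untreated libraries, at or near the floor of the table, and rose with LPS to 2.27 to 3.09 in the WT and 2.91 to 3.44 in the KO. Its genotype difference under LPS was 0.53 (standard error 0.24, limma adjusted p = 0.659). Erbb3, a receptor, was at 1.97 ± 0.11 and 1.95 ± 0.60 log2 CPM (SD, n = 3) in LPS-treated WT and KO cells. Of 10 VEGF ligands and receptors 4 were in the table, and Vegfa was the only member that rose with LPS or that was higher in the LPS-treated KO, the latter at an unadjusted p. Vegfb, another ligand, differed by -0.24 (standard error 0.20), and the co-receptors Nrp1 and Nrp2 by -0.03 and -0.01 (standard errors 0.13 and 0.094).

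Of 16 genes of polyamine metabolism 13 were in the table, with a median difference of 0.013 under LPS. Odc1 was the only member that passed the FDR once batch was in the fit, and the only one that rose with LPS. Sat1, the acetyltransferase that starts polyamine breakdown, was also higher in the LPS-treated KO at an unadjusted p, by 0.63 (standard error 0.15, limma adjusted p = 0.254, and 0.0628 with batch in the fit), and was 7.90 to 8.32 log2 CPM in the WT and 8.59 to 8.97 in the KO. Eif5a, the translation factor modified with a polyamine, and Azin1, the antizyme inhibitor, differed by -0.05 and -0.08 (standard errors 0.12 and 0.24). Among 7 paralogs of the 7 genes, Phlda3 and Ifrd2 were in the table. Their log2 differences were -0.62 and -0.38 (0.37 and 0.26 standard error, limma adjusted p = 0.792 and 0.831), and neither rose with LPS. With batch in the fit their unadjusted limma p was 0.0489 and 0.0422 (adjusted p = 0.259 and 0.241). Phlda3, but not Ifrd2, was then over 1.5-fold lower in the KO at an unadjusted p under 0.05.

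For each of the 7 genes, the gene outside the 7 with the most similar profile over the 16 libraries was found. Similarity was measured by the root mean square difference of log2 CPM values centered on each gene's mean. The 7 genes were not compared with each other. The closest match was that of Odc1 and Btg1 (0.20), followed by Ifrd1 and Pim1 (0.25), Vegfa and Ier5 (0.31) and Sowahc and Ccng2 (0.35). Errfi1 was nearest to Zfp36 (0.39), Fam43a to Nfkbiz (0.47) and Phlda1 to Socs3 (0.60). Phlda1 thus had the least similar partner by this measure, which grows with the size of a gene's changes. Socs3 had a genotype difference of 0.63 under LPS, smaller than that of Phlda1. Ier5 was 0.86 higher in the KO under LPS and 0.63 higher untreated, against 0.92 and 0.66 for Vegfa. The remaining partners were also higher in the KO under LPS, by 0.40 (Pim1) to 0.55 (Ccng2). Partners were picked by profiles that hold the genotype difference, so this is not independent of the match.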

How the data were processed

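The authors aligned 50 bp paired reads of polyadenylated RNA to mm10 in CLC Bio Genomic Workbench and took the reads unique to the exons of a gene. The authors normalized the counts in edgeR (weighted trimmed mean) and deposited log2 CPM of 9614 genes per library. The submitters' processing notes also name CASAVA 1.8 and FastQC. The filter on genes is not given in the sources used here. The deposited p-values and FDR values of the authors' pairwise comparisons were not used.

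The deposited log2 CPM were fitted with lmFit and eBayes (trend = TRUE) of limma 3.58.1 (R 4.3.3), without a further filter or pseudocount, and p-values were adjusted over all genes (Benjamini-Hochberg). Thresholds were an FDR under 0.05 for genotype and under 0.1 for LPS, with over 1.5-fold. The difference of the rise between the genotypes was called at an FDR under 0.05 without a fold threshold. The test was tried on simulated data. Summaries used Python 3.11.15, pandas 2.3.3 and matplotlib 3.10.9. Depth was recovered from the equal CPM steps above a floor of -5.15 log2 CPM: 100.0% of values under 3 CPM were whole reads within 0.1 read in each library. Reads without molecular identifiers are not independent molecules. The lists and the 7 genes were chosen with earlier results of these data known. Named genes were the 7, Nelfb, the genes of the fixed lists that passed a test or had the highest levels, and the nearest profiles.

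Mouse numbers in the labels pair the libraries of a mouse. The WT and KO libraries of a batch moved together around their group means (Pearson r over genes of 0.443 to 0.682 under LPS, 0.482 to 0.76 under LPS + Dex and 0.351 untreated). Untreated, with 2 libraries per group, batches A and B share the same r by construction. The r of mice of different letters was not computed, so these values do not show that the letters are the right pairs. Blocked values are given where a call changed. Libraries of a group came from separate mice.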

Additional observations from a re-analysis of the deposited data

How the results depend on the processing

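Besides the batch or replicate block, the alternatives were a single fit of all 16 libraries, an unadjusted p, voom (limma) with recovered reads, a filter on mean log2 CPM above 1, log2(CPM + 1), median centring of each library and leaving out each library in turn. After the data were seen, the unadjusted p for the difference in LPS response and the unadjusted p with a block were added. Of the 7 genes, 0 were called higher in the LPS-treated KO in the 6-library fit, against 7 at an unadjusted p, 4 with the batch block, 7 with the batch block at an unadjusted p, 2 in the single fit (Phlda1 and Errfi1) and 0 to 3 on leaving out a library, the 3 without WT mouse B. With voom 0 were called. Their limma adjusted p ranged from 0.0188 to 0.717 for Phlda1, 0.0549 to 0.789 for Vegfa, 0.027 to 0.789 for Errfi1, 0.0374 to 0.789 for Odc1, 0.0435 to 0.789 for Ifrd1, 0.0338 to 0.789 for Sowahc and 0.113 to 1.0 for Fam43a.

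Untreated, the count of 0 became 1 at an unadjusted p, 2 with the batch block at an unadjusted p and 0 to 2 on leaving out a library. For the difference in LPS response it was 0, or 3 at an unadjusted p, 3 with the replicate block at an unadjusted p and 0 to 3 on leaving out a library. Both upper counts (Errfi1 and Fam43a untreated, and Phlda1, Odc1 and Ifrd1 for the response) arose without the untreated library of WT mouse B, which leaves the WT library that stood apart as the only untreated WT library, and all-gene calls then rose from 0 to 2006 higher and 1899 lower untreated and to 1531 and 1632 for the response. The number of genes that rose with LPS in the WT was 323, or 208 with the replicate block, 578 in the single fit and 2366 without that library. For the 7 genes no alternative gave a call in the opposite direction, and the LPS rise was called in 6 to 7 of them in each genotype. The untreated difference of Fam43a, called higher with the batch block at an unadjusted p, did change sign: it was -0.16 without WT mouse A. Under LPS + Dex the genotype difference ranged most widely over the alternatives for Fam43a, from 0.60 to 1.15, and was 0.52 to 0.76 for Odc1, 0.79 to 1.01 for Ifrd1 and 0.88 to 1.18 for Sowahc. With 2 untreated libraries per genotype, untreated differences as large as 1.19 did not pass the FDR.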
